A study of Mus musculus with 6 samples.

Results

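Mitochondrial ribosomal protein genes were examined in the livers of C57BL/6J mice fed a regular diet (RD, n = 3 livers) or a high-cholesterol diet for 3 days (HCD, n = 3 livers). The members were all genes named Mrpl or Mrps followed by a number, pseudogenes left out, that were present in the deposited count table. They came to 77 of 20673 genes, of which 48 carry a large-subunit name (Mrpl) and 29 a small-subunit name (Mrps). The RD was a standard rodent chow, and the HCD held added cholesterol and cocoa butter together with sodium cholate, a bile salt that raises cholesterol uptake, so that cholesterol, fat and cholate differ between the diets at the same time. The mice were around 12 weeks of age and of both sexes, and the sex of each liver was not given in the sources used here. The animals were otherwise untreated, each library was labelled as 1 liver, and nothing in the labels said that livers were pooled.

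The mitochondrial ribosome is a separate ribosome inside mitochondria that translates the few proteins encoded by mitochondrial DNA, all of them subunits of the respiratory chain and ATP synthase. Its ribosomal RNAs are transcribed from mitochondrial DNA, while all of its proteins are encoded in the nucleus, made in the cytosol and imported. The small subunit reads the mRNA, and the large subunit joins the amino acids and is attached to the inner membrane. Part of the proteins descend from bacterial ribosomal proteins, and the others are particular to mitochondria. Liver is rich in mitochondria, and hepatocytes supply most of its RNA.

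Total counts ran from 13771630 to 23129576 in the RD livers and from 13935491 to 18545549 in the HCD livers. Levels are given as CPM, counts scaled to library size with TMM factors, or as FPKM, which is also per length of the gene. Genes were called changed at an adjusted p under 0.05 (edgeR, quasi-likelihood F test, Benjamini-Hochberg) among 13105 tested genes. This called 255 genes higher and 173 lower in HCD, together 3.27% of the genes, and 158 higher and 161 lower when the libraries were scaled by their sizes alone. Xist, the RNA of the inactive X chromosome of females, was found in HCD replicate 1 alone (5032 counts, against 0). Sex as read from Xist was thus unbalanced between the diets, and its part in the results was not tested. With HCD replicate 1 left out, the members' median log2 fold change was 0.28 with 5 called higher. Hepatocyte markers were abundant in all 6 livers and none was at 0. The summed CPM of cholangiocyte, endothelial, Kupffer cell, leukocyte, stellate and red blood cell markers overlapped between the diets, although 2 of 5 red blood cell genes were called higher. The median log2 fold changes of the markers were 2.28 for red blood cells, 0.91 for Kupffer cells, 0.60 for cholangiocytes, 0.51 for stellate cells, 0.24 for endothelial cells, 0.095 for leukocytes (2 of 6 tested) and -0.25 for hepatocytes. Kupffer cell markers summed to 90.4 to 162 CPM in RD and to 130 to 305 CPM in HCD, and the part of these cell types in the results below was not tested. In bulk liver RNA, a change in the number of cells of a type and a change in the RNA of each cell cannot be told apart.

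All 77 members passed the filter on low counts. In HCD, 7 of the 77 (9.09%) were called higher, against 1.95% of all tested genes, and 0 were called lower, against 1.32%. Before adjustment, p was under 0.05 for 32 members with higher (41.6%, against 11.1% of all tested genes) and 2 with lower levels (2.60%, against 9.81%), and DESeq2 and limma also called 0 lower. The log2 fold change, HCD over RD, was above 0 for 66 members and below 0 for 11, with a median of 0.27 against 0.0074 for all tested genes. In 35 members (45.5%) every HCD liver lay above every RD liver, against 14% of all genes, and in 4 members (5.19%) every HCD liver lay below, against 13.7%. The members that were not called thus also lay mostly above 0.

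Summed over the 77 members, the level was 2047, 1977 and 2027 CPM in the RD livers and 2394, 2475 and 2577 CPM in the HCD livers. The groups did not overlap. The RD mean was 2017 ± 36.4 CPM and the HCD mean was 2482 ± 91.7 CPM (SD, n = 3 each).

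**Figure D1:**
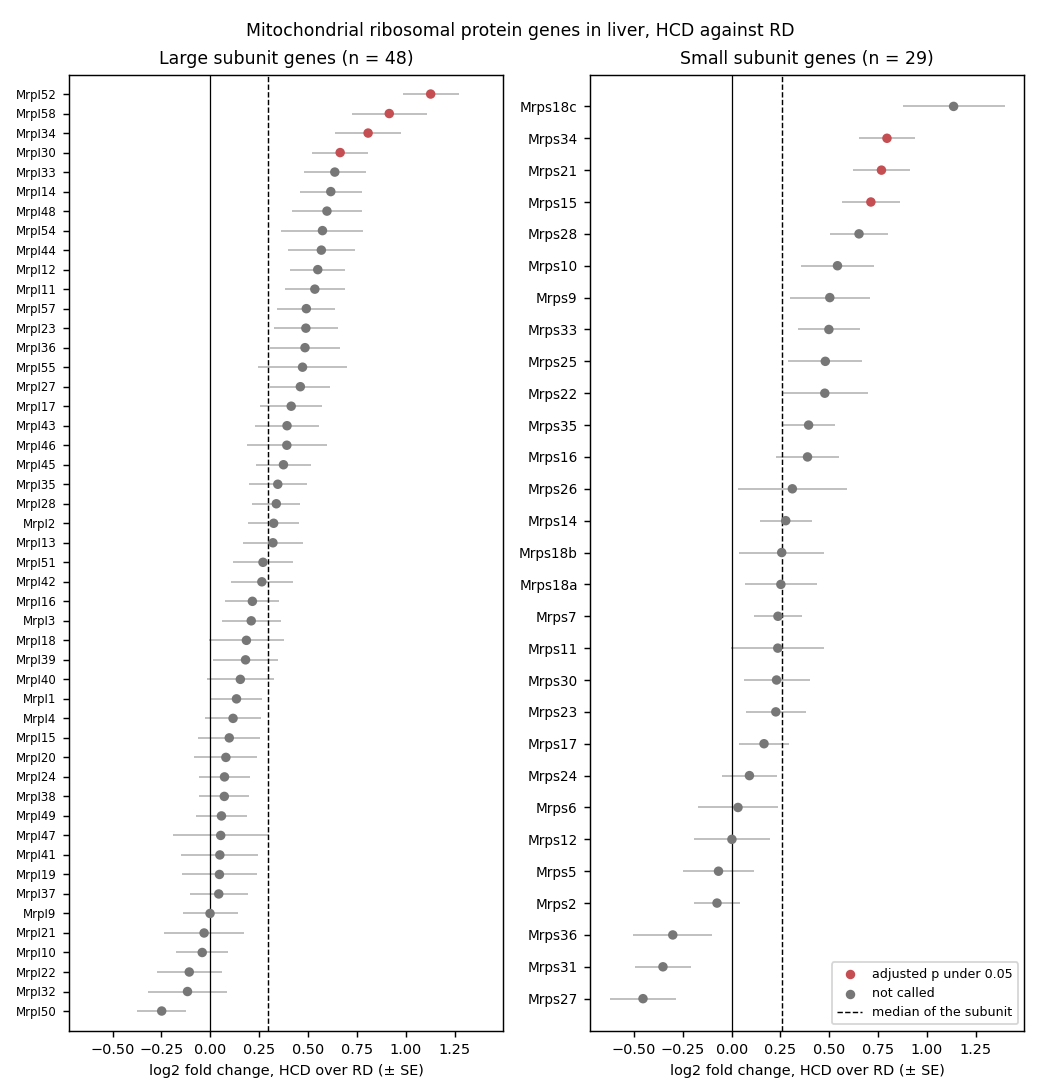
log2 fold change, HCD over RD, with its standard error (x axis) for each of the 48 large subunit genes and 29 small subunit genes (y axis), from the edgeR fit. Red points were called at an adjusted p under 0.05, and the dashed lines mark the medians of 0.29 and 0.26; most points of both panels lie to the right of 0.

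Of the large subunit genes, 4 of 48 were called higher (8.33%, against 1.95% of all tested genes) and 42 had a log2 fold change above 0 (87.5%, against 50.7%). Positions below are those of GENCODE M21 on GRCm38. Mrpl52 (ENSMUSG00000010406, chr14:54426909-54429756), a protein found only in mitochondrial ribosomes, had the largest log2 fold change of this subunit. Its level was 28.4, 21.4 and 25.0 CPM in the RD livers and 53.8, 54.0 and 55.8 CPM in the HCD livers. The lowest HCD liver was well above the highest RD liver, and the HCD livers were nearly equal. Mrpl52 rose 2.18-fold (log2 1.13 ± 0.14 SE, adjusted p = 0.0104).

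Mrpl58 (ENSMUSG00000018858, chr11:115403752-115412674), also known as Ict1, is a peptidyl-tRNA hydrolase of the large subunit that frees stalled ribosomes. It measured 23.3, 19.5 and 22.7 CPM in RD and 31.9, 40.3 and 51.7 CPM in HCD. The groups did not overlap, but the HCD livers were spread widely. Mrpl58 rose 1.89-fold (log2 0.92 ± 0.19, adjusted p = 0.0442).

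Mrpl34 (ENSMUSG00000034880, chr8:71464959-71465747), a small protein with a bacterial homologue, was at 29.2, 34.0 and 32.7 CPM in RD and at 43.9, 63.8 and 60.3 CPM in HCD. HCD replicate 1 was the lowest of its group and still lay above all RD livers. Mrpl34 rose 1.75-fold (log2 0.81 ± 0.17, adjusted p = 0.0438). Mrpl30 (ENSMUSG00000026087, chr1:37890477-37898535), again with a bacterial homologue, was at 39.2, 33.8 and 34.8 CPM in RD and at 54.6, 50.9 and 65.6 CPM in HCD. It rose 1.58-fold (log2 0.66 ± 0.14, adjusted p = 0.0476), just inside the threshold, and 2 processed pseudogenes match its sequence at 90% identity or more.

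Of the small subunit genes, 3 of 29 were called higher (10.3%, against 1.95% of all tested genes) and 24 had a log2 fold change above 0 (82.8%, against 50.7%). Mrps34 (ENSMUSG00000038880, chr17:24895116-24897502), a mitochondria-specific protein, was at 24.5, 23.6 and 19.9 CPM in RD and at 37.2, 38.2 and 42.6 CPM in HCD. The groups were clearly apart, and Mrps34 rose 1.73-fold (log2 0.79 ± 0.14, adjusted p = 0.0282). Its exons overlap those of Mapk8ip3 on the opposite strand over 63.4% of their length and those of Nme3 on the same strand over 37.0%, so that its count may hold or lose reads of these neighbours.

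Mrps21 (ENSMUSG00000054312, chr3:95862634-95871519), a homologue of a bacterial small subunit protein, was at 22.9, 22.6 and 22.1 CPM in RD and at 34.7, 35.4 and 45.1 CPM in HCD. The RD livers were almost identical. Mrps21 rose 1.70-fold (log2 0.77 ± 0.15, adjusted p = 0.0341). The processed pseudogene Gm6181 matches 264 of its bases at 97.3% identity and has a row of its own in the tables, so that reads may be split between them. Mrps15 (ENSMUSG00000028861, chr4:126046925-126055532), which binds the small subunit rRNA, was at 21.1, 18.3 and 18.3 CPM in RD and at 30.5, 28.3 and 35.7 CPM in HCD. It rose 1.64-fold (log2 0.71 ± 0.15, adjusted p = 0.0440), and no RD liver reached the lowest HCD liver.

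**Figure D2:**
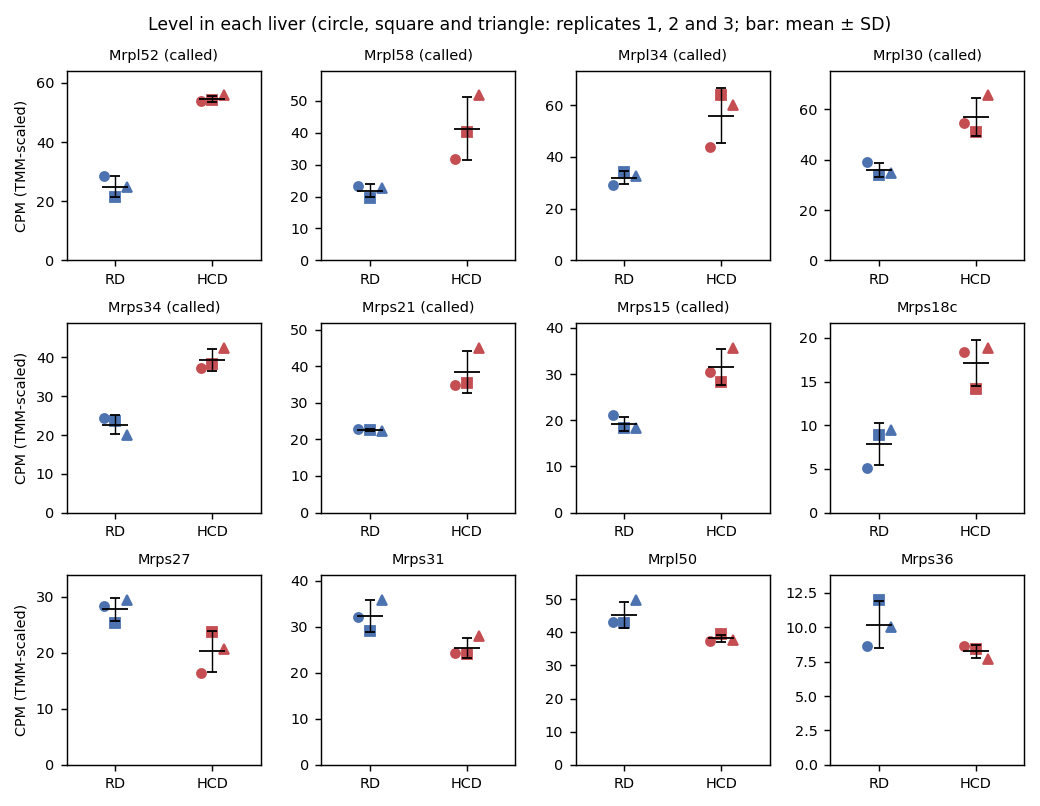
TMM-scaled CPM (y axis, from 0) in each of the 6 livers for 12 members, with the mean ± SD of each diet (n = 3). In the 7 called genes and Mrps18c all HCD livers lie above the RD livers, in Mrps27, Mrps31 and Mrpl50 they lie below, and in Mrps36 the diets overlap.

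The calls depended on single livers. Without RD replicate 2, 0 members were called by edgeR and Mrpl52 had an adjusted p of 0.0547. Without HCD replicate 1, 5 were called (Mrpl34, Mrpl52, Mrpl58, Mrps21 and Mrps34), and without RD replicate 1 or 3 or HCD replicate 2 or 3 Mrpl52 alone was called. With 2 livers left in a group, the calls over all genes also fell, to between 15 and 200 higher. The median of the members stayed between 0.25 and 0.32 in these 6 fits.

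Several members lay just outside the threshold. Mrps18c had the largest log2 fold change of all members (1.14 ± 0.26, adjusted p = 0.0557), with 5.05, 8.93 and 9.42 CPM in RD and 18.3, 14.1 and 18.9 CPM in HCD. Its counts were low (RD mean 7.80 CPM), while its level per length, 17.1 FPKM over the 6 livers, was near the median of the members, and Gm43511 shares 23.2% of its exons on the same strand. Mrps28, Mrpl33, Mrpl12 and Mrpl14 had log2 fold changes of 0.65, 0.64, 0.55 and 0.62 with adjusted p of 0.0522, 0.0689, 0.0757 and 0.0784. DESeq2 called these 5 genes in addition to the 7, which gave 12 members, against 4.86% of all genes higher by that tool. Mrpl12 belongs to the stalk of the large subunit that recruits translation factors, and it was at 44.3, 41.6 and 45.4 CPM in RD and at 70.5, 67.9 and 53.8 CPM in HCD.

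The 3 proteins of the Mrps18 family, relatives of 1 bacterial protein, include Mrps18c. Mrps18a, which sits in the large subunit despite its name, had a log2 fold change of 0.25 ± 0.18, and Mrps18b had 0.26 ± 0.22, with overlapping diets in both. Mrps30 is likewise a large subunit protein, and its log2 fold change was 0.23 ± 0.17 (adjusted p = 0.473). The differences between the 3 relatives were not tested.

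At the other end, no member passed the threshold downward. Mrps27, a pentatricopeptide repeat protein of the small subunit, was at 28.4, 25.4 and 29.5 CPM in RD and at 16.5, 23.8 and 20.7 CPM in HCD (log2 fold change -0.45 ± 0.17, adjusted p = 0.178). Mrps31 was at 32.1, 29.0 and 35.8 CPM in RD and at 24.2, 24.0 and 27.9 CPM in HCD (log2 fold change -0.35 ± 0.14, adjusted p = 0.209). All HCD livers were below all RD livers in both genes, and also in Mrpl50 (-0.25 ± 0.13) and Mrps2 (-0.075 ± 0.12). The next lowest large subunit genes were Mrpl32 at -0.12 and Mrpl22 at -0.11, with overlapping diets. Mrps36 carries a small subunit name but is a component of the 2-oxoglutarate dehydrogenase complex of the citric acid cycle, and its log2 fold change was -0.30 ± 0.20 with overlapping diets.

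The difference between large and small subunit genes was smaller than its spread between livers. Their median log2 fold changes were 0.29 for the large subunit and 0.26 for the small subunit, a difference of 0.039. The large subunit genes summed to 1373, 1314 and 1364 CPM in RD and to 1612, 1666 and 1762 CPM in HCD. The small subunit genes summed to 675, 663 and 663 CPM in RD and to 782, 810 and 815 CPM in HCD. Both sums were higher in every HCD liver than in any RD liver. Within single livers, the median deviation of the large subunit genes minus that of the small subunit genes lay between -0.096 and 0.11 on the log2 scale, with a pooled SD of 0.076, and the RD and HCD values overlapped. The difference of the medians took either sign when single livers were left out (-0.064 to 0.098), and it was -0.027 when Mrps30 and Mrps18a were placed in the large subunit and Mrps36 was left out. By evolutionary origin the values were also close. Leaving out Mrps36, the 46 listed with a bacterial homologue had a median of 0.26 with 4 called. The 30 listed as mitochondria-specific had a median of 0.29 with 3 called. Mrps18a and Mrps18b were counted among these 30, although they are relatives of a bacterial protein.

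Per length, the levels of the members spanned 2.81 FPKM for Mrps25 to 107 FPKM for Mrpl34, with a median of 16.9. Averaged over all 6 livers, the highest large subunit genes after Mrpl34 were Mrpl14 at 77.7 FPKM and Mrpl2, a protein next to the peptidyl transferase center, at 55.4 FPKM. In RD, Mrpl34 was at 77.0 ± 6.03 FPKM and Mrpl14 at 60.8 ± 7.69 FPKM, and in HCD they were at 137 ± 24.0 and 94.6 ± 16.7 FPKM (SD, n = 3). The livers of both genes were apart in RD and overlapped in HCD, and Mrpl2 lay below Mrpl14 in every liver. The order differed between the diets: in HCD Mrpl52, at 73.0 ± 2.46 FPKM, lay above Mrpl2, at 62.1 ± 6.96 FPKM, in every liver. In the small subunit, over the same 6 livers, Mrps21 led at 60.9 FPKM, followed by Mrps7 at 47.8, Mrps24 at 44.4 and Mrps12 at 43.8. In RD the livers of Mrps21, Mrps7 and Mrps24 overlapped, at 44.6 ± 0.612, 43.5 ± 1.39 and 42.7 ± 2.20 FPKM with Mrps12 among them at 43.5 FPKM, whereas in HCD Mrps21 stood apart at 77.2 ± 12.4 against 52.0 ± 3.46 and 46.1 ± 5.48 FPKM, which overlapped. Neither Mrpl2 nor Mrps7 nor Mrps24 was called (log2 fold changes of 0.32, 0.24 and 0.09). The order is by the exon length the authors used, which for 72 of the 77 members equalled the GENCODE M21 exon length within 1%, and proteins of a ribosome in equal number need not have mRNAs of equal level.

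Short genes had higher log2 fold changes in these livers as a whole, and the members were short. The median exon length was 2533 bases for the members and 4235 bases for all tested genes. With all tested genes divided by length into 10 groups of equal size, the shortest group, up to 1436 bases, had a median log2 fold change of 0.32, and the medians fell stepwise to -0.17 in the longest group. In the shortest group the 18 members had a median of 0.47, and in group 2 the 19 members had 0.23, the same as all genes of that length. In group 3, 6 members had a median of 0.094 against 0.10. In the 6 groups above, 34 members had medians of 0.093 to 0.40, where all genes had -0.12 to 0.043, and 2 of these members were called (Mrpl30 and Mrpl58, both in group 4, where 0.916% of all genes were called higher). The other 5 calls lay among the short genes, 3 of 18 members in group 1 and 2 of 19 in group 2, where 7.78% and 4.50% of all genes were called higher. With the trend over length removed from the fit, 60 of 77 members were above 0 with a median of 0.25, and Mrpl52 alone was called (log2 0.93, adjusted p = 0.0221), against 1.05% of all genes called higher. Of the calls lost, Mrpl58 kept a log2 fold change of 0.92 (adjusted p = 0.0645), and Mrpl30 and Mrps34 had 0.66 and 0.69 (adjusted p = 0.0747 and 0.0559). Mrps15, Mrpl34 and Mrps21 had lower values than before, at 0.58, 0.51 and 0.50 (adjusted p = 0.0954, 0.135 and 0.125). The part of length in the values of single members was not tested.

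**Figure D3:**
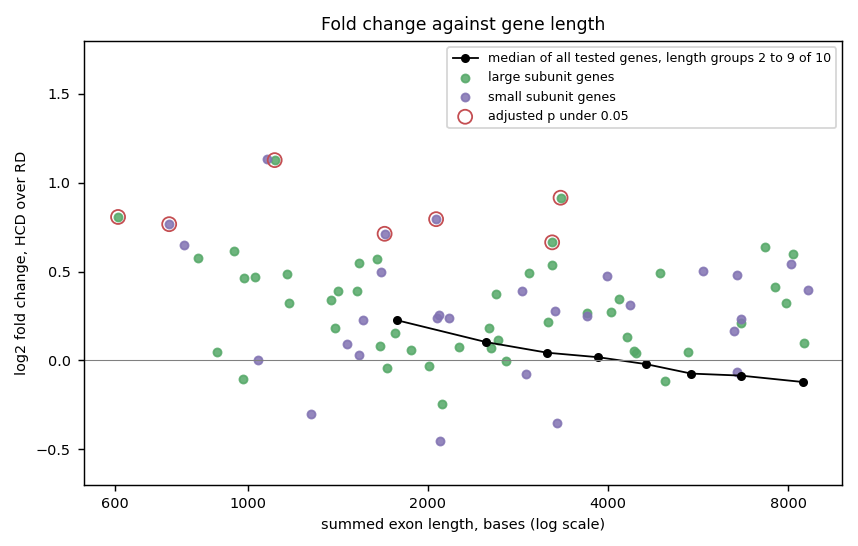
log2 fold change, HCD over RD (y axis), against summed exon length in bases (x axis, log scale) for the 77 members, by subunit, with the 7 called members circled. The black line joins the medians of all tested genes in length groups 2 to 9 of 10; members beyond about 2859 bases lie mostly above the line, while those between 1437 and 2858 bases scatter around it.

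To show the sequences upstream of the called genes, the 150 bases before the annotated start were taken from RefSeq promoter windows (GRCm38.p6), which matched 68 of 77 members. For Mrpl34, Mrps15, Mrps21 and Mrpl50 the start used in the window differs from the GENCODE M21 start of the gene by some bases. Printed are the called genes that matched and the lowest gene of each subunit, Mrpl50 and Mrps27, 5′ to 3′ along the gene. Capitals mark matches on either strand to CCGGAAG, the core bound by ETS family factors such as GABP, which is known to act on many nuclear genes for mitochondrial proteins.
Mrpl52, chr14:54426759-54426908, plus strand: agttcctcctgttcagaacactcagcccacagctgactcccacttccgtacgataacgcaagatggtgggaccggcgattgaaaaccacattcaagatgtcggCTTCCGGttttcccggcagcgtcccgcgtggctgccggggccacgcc
Mrpl34, chr8:71464776-71464925, plus strand: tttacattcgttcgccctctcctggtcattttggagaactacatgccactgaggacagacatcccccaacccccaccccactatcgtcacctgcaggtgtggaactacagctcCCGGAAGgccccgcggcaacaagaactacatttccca
Mrpl58, chr11:115403602-115403751, plus strand: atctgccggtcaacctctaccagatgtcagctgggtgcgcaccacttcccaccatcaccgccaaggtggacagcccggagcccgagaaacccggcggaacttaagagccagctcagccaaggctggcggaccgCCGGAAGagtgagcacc
Mrpl30, chr1:37890327-37890476, plus strand: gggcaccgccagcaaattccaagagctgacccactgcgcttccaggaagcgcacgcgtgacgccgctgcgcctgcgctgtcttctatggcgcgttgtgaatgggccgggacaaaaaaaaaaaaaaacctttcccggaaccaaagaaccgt
Mrps21, chr3:95871515-95871664, minus strand: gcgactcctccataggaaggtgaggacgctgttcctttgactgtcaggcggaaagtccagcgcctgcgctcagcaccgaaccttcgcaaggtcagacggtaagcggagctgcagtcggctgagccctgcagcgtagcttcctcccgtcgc
Mrps15, chr4:126046778-126046927, plus strand: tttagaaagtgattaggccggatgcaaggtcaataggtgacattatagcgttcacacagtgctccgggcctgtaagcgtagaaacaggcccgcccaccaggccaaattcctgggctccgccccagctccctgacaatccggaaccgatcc
Mrpl50, chr4:49521084-49521233, minus strand: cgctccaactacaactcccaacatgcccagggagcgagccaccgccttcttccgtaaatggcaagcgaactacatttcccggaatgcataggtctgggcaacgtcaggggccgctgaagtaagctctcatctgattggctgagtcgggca
Mrps27, chr13:99344636-99344785, plus strand: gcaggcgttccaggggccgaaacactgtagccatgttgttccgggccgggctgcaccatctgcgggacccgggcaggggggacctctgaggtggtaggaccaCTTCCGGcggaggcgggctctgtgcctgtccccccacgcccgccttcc
Over the whole windows, from 250 bases before to 50 after the start, CCGGAAG was found for 25 of 68 members (36.8%), 14 of 42 large and 11 of 26 small subunit genes, against 9.93% of all genes with a window and 19.8% of the tested ones. It was present for 4 of the 6 called members shown and for 21 of 62 uncalled ones, and also for Mrps27, whose HCD livers lay lower. In Mrps21 the match lay after the start and is not printed. AAGATGGC, the YY1 core, was found for 12 members (17.6%, against 3.19% of all and 5.25% of tested genes), and CGCATGCG, the NRF1 core, for 7 (10.3%, against 2.07% and 4.26%). The TATA box letters TATAAA were found for 5 members (7.35%), close to the 9.26% of tested genes and below the 15.7% of all. None of these 3 was in the windows of the 6 called genes shown, and the called gene Mrps34 matched no window. At the members' shares of 7.35 to 17.6%, 6 genes are too few to tell whether these letters are rarer among them. The log2 fold changes had a median of 0.39 for members with CCGGAAG and 0.23 for those without, 0.16 and 0.33 with and without AAGATGGC, -0.0015 and 0.31 with and without CGCATGCG, and 0.22 and 0.27 with and without TATAAA. These are matches of letters in a fixed window, and binding was not measured. The mRNAs of the factors were not called: the log2 fold change was -0.17 ± 0.18 for Gabpa and 0.33 ± 0.22 for its partner subunit Gabpb1, whose HCD livers all lay above the RD livers, 0.12 ± 0.18 for Nrf1 and 0.092 ± 0.14 for Yy1. In a list of 9 transcription factors of nuclear mitochondrial genes, edgeR called 0, and log2 fold changes ran from -2.53 to 0.33 (median 0.12). Before adjustment p was under 0.05 for 0 higher and 1 lower of them (11.1%), against 11.1% and 9.81% of all tested genes.

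Mitochondrial ribosomal proteins with other names were counted apart. Gadd45gip1, a large subunit protein also known as Crif1, was at 19.2, 16.5 and 16.9 CPM in RD and at 32.0, 45.7 and 47.7 CPM in HCD. It rose 2.38-fold (log2 1.25 ± 0.18, adjusted p = 0.0147). Chchd1, of the small subunit, was at 14.9, 12.9 and 14.7 CPM in RD and at 23.5, 25.2 and 23.4 CPM in HCD, and rose 1.69-fold (log2 0.76 ± 0.14, adjusted p = 0.0306). Aurkaip1 had a log2 fold change of 0.34 ± 0.13 without being called, although its diets did not overlap. Dap3, a GTP-binding protein of the small subunit, and Ptcd3 had -0.066 ± 0.16 and -0.10 ± 0.14. Thus 2 of these 5 were called higher and 0 lower, also by DESeq2, against 1.95% (edgeR) and 4.86% (DESeq2) of all tested genes called higher. In 8 other settings with all livers, Gadd45gip1 was called in 7, all but the replicate number as a block (adjusted p = 0.0540). Chchd1 was called in 5. It was not called with library sizes alone (adjusted p = 0.0657), the trend over length removed (0.0991) or the block (0.0757). With single livers left out, Chchd1 was never called, and Gadd45gip1 was called only without HCD replicate 1 or without HCD replicate 2.

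Neither ribosomal RNA of the mitochondrial ribosome was called. The 12S rRNA mt-Rnr1 was at 529, 439 and 613 CPM in RD and at 587, 616 and 1342 CPM in HCD (log2 fold change 0.69 ± 0.32, adjusted p = 0.267). The 16S rRNA mt-Rnr2 was at 837, 667 and 1035 CPM in RD and at 701, 871 and 1496 CPM in HCD (0.27 ± 0.29, adjusted p = 0.641). HCD replicate 3 was far above the other livers in both, and without it the values were 0.18 and -0.12.

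Genes that work with the mitochondrial ribosome had medians closer to 0 than its proteins. Of 13 tested translation factors edgeR and DESeq2 called 0, p before adjustment was under 0.05 for 1 higher (7.69%) and 2 lower genes (15.4%), against 11.1% and 9.81% of all tested genes, and the median log2 fold change was -0.017. Tufm, the elongation factor that brings tRNAs to the ribosome, was the most abundant at 101, 101 and 117 CPM in RD and 97.6, 97.3 and 122 CPM in HCD. Its partner Tsfm, the exchange factor, had 0.59 ± 0.19 (adjusted p = 0.129), and the translocase Gfm1 had -0.017 ± 0.13. The initiation factors Mtif2 and Mtif3 had -0.39 ± 0.14 (adjusted p = 0.165) and -0.023 ± 0.15. Of the recycling and release factors, Mrrf had 0.37 ± 0.20, Gfm2 -0.36 ± 0.15 and Mtrf1l -0.15 ± 0.30.

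Of 20 genes that charge mitochondrial tRNAs edgeR and DESeq2 called 0, p before adjustment was under 0.05 for 1 higher gene, and the median was -0.10. Of 24 assembly factors, which help to build the ribosome and modify its rRNAs, edgeR called 0, p before adjustment was under 0.05 for 1 higher and 1 lower gene, and the median was -0.055. Malsu1, which acts on the large subunit, was the highest of them (0.69 ± 0.16, adjusted p = 0.0557), with 12.7, 11.9 and 10.3 CPM in RD and 18.2, 17.9 and 20.2 CPM in HCD, and DESeq2 called it. Of 10 genes listed for the expression and copying of mitochondrial DNA edgeR called 0. Before adjustment p was under 0.05 for 2 higher and 1 lower gene. DESeq2 called 1, the RNA-binding protein Slirp (1.66 ± 0.46, adjusted p = 0.0952 by edgeR). The median was 0.12, the RNA polymerase Polrmt had 0.36 ± 0.15, and the packaging factor Tfam had 0.26 ± 0.12. Twnk, the helicase of mitochondrial DNA, had -0.57 ± 0.18 (adjusted p = 0.129), with every HCD liver below every RD liver. The exons of Twnk share 507 bases with those of Mrpl43 on the opposite strand, so that its count may hold or lose reads. In Slirp, Polrmt and Tfam, 3 of the 10, every HCD liver lay above every RD liver, against 14% of all tested genes. The lower share was 10%, against 13.7%. These higher and lower shares were 23.1% and 23.1% for translation factors, 5% and 15% for tRNA-charging genes, and 8.33% and 8.33% for assembly factors. These lists hold longer genes, with median exon lengths of 3868, 5174, 3874 and 4397 bases, and with the trend over length removed their medians were -0.089, -0.0096, 0.0041 and 0.16. As shares, p before adjustment was under 0.05 for 5% of the tRNA-charging genes in the higher direction, for 4.17% of the assembly factors in either direction, and for 20% higher and 10% lower of the genes of mitochondrial DNA, beside 11.1% and 9.81% over all tested genes. The differences between the lists were not tested.

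**Figure D4:**
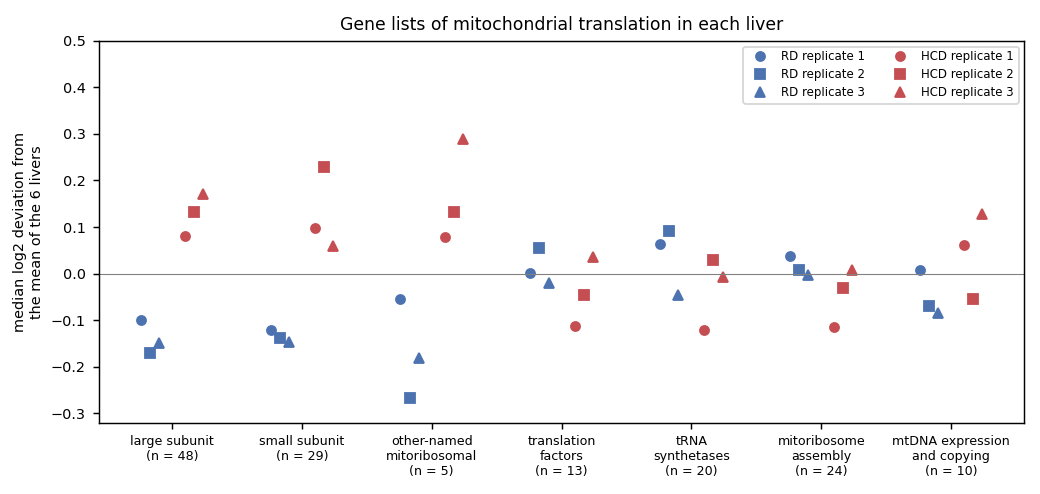
Median over each list of the log2 deviation of a gene's CPM from its mean over the 6 livers (y axis), for 7 gene lists (x axis), with 1 point for each liver. In the large subunit, small subunit and other-named mitochondrial ribosomal lists the HCD livers lie above all RD livers, and in the other 4 lists the diets overlap.

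For comparison, the ribosomal proteins of the cytosol had a median log2 fold change of 0.35, with 14 of 78 tested genes called higher and 0 lower by edgeR, against 1.95% and 1.32% of all tested genes. Before adjustment p was under 0.05 for 40 higher (51.3%) and 1 lower of them, against 11.1% and 9.81%, and in 50 (64.1%) every HCD liver lay above every RD liver, against 14%. Their median exon length was 1806 bases. The 77 mitochondrial members thus had a smaller median and, at 9.09%, a smaller called share than the 17.9% of the cytosolic genes, a difference that was not tested.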

How the data were processed

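RNA was extracted from 6 livers with the RNeasy kit and sequenced by Novogene. The deposited tables held raw counts per gene and, per the file headers, FPKM made by the authors from them, and the columns were matched to the livers by the library names in the labels. The deposited FPKM table also held the log2 fold change, p-value and adjusted p-value of the authors' own comparison, which were not used. Per the labels, STAR, HTSeq, DESeq2, edgeR and GRCm39 were used, with no roles or versions. The lengths implied by the deposited FPKM equalled GENCODE M21 (GRCm38) exon lengths within 0.1% for 94.85 to 94.97% of genes with 50 or more counts, so lengths and overlaps were taken from M21. Library kit and strand setting were not given in the sources used here, and reads of genes that overlap on opposite strands could not be told apart. Of the 77 members, 32 share exon bases with another gene, 25 have a copy of at least 200 bases at 90% identity or more (minimap2 2.31), and 30 have neither.

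Counts were fitted with edgeR 4.0.16 in R 4.3.3 (filterByExpr by diet, TMM factors, quasi-likelihood F test of HCD against RD over all 6 livers, no covariate), with Benjamini-Hochberg adjustment over 13105 genes. Replicates are separate livers. No pair of livers agreed within sampling noise. Lists were described by counts and medians and were not tested. On simulated counts for HCD against RD over 12869 genes, the fit called 49 of 100 genes changed 2-fold and 95 of 100 changed 4-fold, with 10 false calls. Alternatives were RLE factors, library sizes alone, no filter, a loess correction of each library for gene length, the replicate number as a block, DESeq2 1.42.0, limma 3.58.1 on log2(FPKM + 1) and log2(FPKM + 0.1), each liver left out, subunits by structure, and, chosen after seeing the data, members without shared reads. Members and gene lists were chosen with earlier results of these data known. Named genes were the members called; in each subunit the 3 highest and 3 lowest in log2 fold change at 1 CPM or more and the 3 highest in FPKM; a fixed set of members and partner genes; and called genes of the other lists. Those near the threshold, Mrps2, Mrps12, Mrps25, Malsu1, Slirp, Polrmt, Tfam, Twnk, Gabpa, Gabpb1, Nrf1 and Yy1 were named after their values were seen.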

Additional observations from a re-analysis of the deposited data

How the results depend on the processing

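The median log2 fold change of the members stayed above 0 in each alternative, from 0.21 with library sizes alone to 0.32 without RD replicate 1, and 0 members were called lower in any. With library sizes alone, 3 members were called (large subunit 2, small 1, bacterial homologue 1), with medians of 0.21, 0.23 for the large subunit, 0.19 with a bacterial homologue and 0.24 for mitochondria-specific members, while all genes had 158 called higher and a median of -0.056. Without the filter, 8 members were called, the 7 and Mrps18c, and all genes had 285 called lower and a median of -0.0059. With the length correction, 1 member was called (large 1, small 0, bacterial homologue 0, mitochondria-specific 1). The large subunit median was then 0.23 and the difference of medians -0.040. All genes had 138 called higher, 113 lower and a median of 0.029. Of the other-named proteins 1 was called (median 0.20), and the medians were -0.089 for translation factors, -0.0096 for tRNA synthetases and 0.0041 for assembly factors. DESeq2 called 12 members (large 7, small 5, bacterial homologue 9), 636 genes higher and 482 lower, with 1 assembly gene and 1 gene of mitochondrial DNA expression higher. Limma called 6 members on either scale, with Mrps28 added and Mrpl30 and Mrpl58 lost, and 2 of these 6 were large subunit genes. With a pseudocount of 0.1 it called 115 genes lower. Of the 30 members without shared reads, 3 were called (large 2, small 1), with a median of 0.29. For the differences between tools and scalings, the cause was not tested.

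The replicate numbers did not pair the livers (correlations of same-numbered deviations -0.0761, 0.0879 and -0.0413). With the replicate block, which spends degrees of freedom, 1 member was called (large 1, small 0, bacterial homologue 0, mitochondria-specific 1), with 71 genes higher and 65 lower and a median over all genes of -0.0076.

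With each liver left out in turn, the members called ranged from 0 to 5 (median 0.25 to 0.32), large subunit 0 to 3 (0.23 to 0.32), small subunit 0 to 2 (0.21 to 0.32), bacterial homologue 0 to 2 (0.24 to 0.31), mitochondria-specific 0 to 3 (0.30 to 0.34) and other-named proteins 0 to 1. All genes called ranged from 15 to 200 higher and from 21 to 141 lower, with medians from -0.0070 to 0.020. The medians ranged from -0.13 to -0.0076 for tRNA synthetases, -0.098 to 0.023 for assembly factors and -0.0083 to 0.20 for mitochondrial DNA expression, and the difference of subunit medians from -0.064 to 0.098. Fewer livers were in these fits.

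With 3 livers a group and a biological coefficient of variation of 27.8%, changes under 2-fold, the range of nearly all members, were at the limit of the test. Diet and library series cannot be told apart, since the library names differ in style between the diets.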
